A study of Arabidopsis thaliana with 2 samples.

Results

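The auxin response factor (ARF) genes of Arabidopsis thaliana examined here were 10 genes chosen by name, of 25224 genes in the tables of the series, together with the small RNAs that target most of them. They held 17 of the 33114 isoforms in the exon table. ARF2 (AT5G62000), ARF3 (AT2G33860, also named ETTIN) and ARF4 (AT5G60450) are targets of trans-acting siRNAs (tasiRNAs) from the TAS3 transcript, ARF6 (AT1G30330) and ARF8 (AT5G37020) of miR167, and ARF10 (AT2G28350), ARF16 (AT4G30080) and ARF17 (AT1G77850) of miR160. ARF5 (AT1G19850, MONOPTEROS) and ARF7 (AT5G20730, NPH4) are not targeted by these small RNAs and were set beside them. The series consists of 1 ribo-seq and 1 mRNA-seq library, both prepared from the membrane-bound polysomes (MBPs) of wild-type seedlings aged 13 days, grown on plates of Murashige and Skoog medium with no other treatment. Ribo-seq sequences the short RNA pieces that ribosomes shield from RNase I, and mRNA-seq sequences the RNA of the same fraction. Whole seedlings mix many cell types, and fewer cells of a type cannot be told apart from less RNA per cell. Since each assay has 1 library, no value below has a replicate check and none carries a p-value, and intervals cover counting error only.

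ARFs are transcription factors that bind auxin response elements in promoters. At low auxin, Aux/IAA proteins bound to ARFs recruit the TOPLESS co-repressors, and auxin leads to the destruction of the Aux/IAA proteins through the TIR1/AFB receptors. ARF5, ARF6, ARF7, ARF8 and ARF19 are classed as activators and most other ARFs as repressors. Plants hold down several ARF transcripts with small RNAs: miR160 and miR167 are loaded into AGO1, whereas miR390 in AGO7 starts the production of phased siRNAs from TAS3, of which the copies called tasiARFs pair with ARF2, ARF3 and ARF4. Long 5' UTRs with upstream start codons are also a known feature of ARF transcripts, and ribosomes that initiate there read a short upstream open reading frame (uORF) before the main one.

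The small RNAs are shown first because they define the classes. They were read from the RefSeq TAIR10.1 genome at the annotated mature positions, 5' to 3', with the seed (bases 2 to 8) in capitals. The 3 copies of miR160 have the same mature sequence. MIR167a and MIR167b give the same sequence, miR167d is longer by 1 base and shares their seed, and miR167c has another seed.
miR160a, b and c: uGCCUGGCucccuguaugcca
miR167a and b: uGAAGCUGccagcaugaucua
miR167c: uAAGCUGCcagcaugaucuug
miR167d: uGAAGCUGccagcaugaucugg
miR390a and b: aAGCUCAGgagggauagcgcc

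In the TAS3 transcript (AT3G17185), the miR390 site farther downstream lay at chr3:5862343-5862363. Counting upstream from the cut that miR390 makes there, opposite its base 10, in steps of 21 bases, the windows numbered 7 and 8 carried the sequences that pair with ARFs. These are windows in the register and not measured siRNAs: the true 5' ends of the siRNAs in the seedlings were not analysed here.
TAS3 window 7, chr3:5862207-5862227: uCUUGACCuuguaagacccca
TAS3 window 8, chr3:5862186-5862206: uCUUGACCuuguaaggccuuu

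Sites for these small RNAs were sought in the coding sequence of each gene. Aligned without gaps, with a mismatch scored 1 and a G-U pair 0.5, TAS3 window 8 reached a score of 2 or less in 3 of 25015 genes, and these were ARF2, ARF3 and ARF4. For miR160a, a score of 2.5 or less was likewise found in 3 genes, ARF10, ARF16 and ARF17. miR167a paired less well. At a score of 4 or less, which was needed to include ARF6, it matched 18 genes, among them ARF6 and ARF8. The search with miR167a alone thus does not single out the miR167 targets. The copy miR167c paired better with ARF6, at a score of 2.5, and scored 3 with ARF8, but it was not searched over all genes. The limits were set at the poorest site of the named targets, and window 8 was picked for its pairing with ARFs. That the named targets were found was thus fixed in advance, and the counts show only how many other genes reached the limits. ARF5 and ARF7 had no site within these limits.

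The sites are given as the DNA of the transcript strand, with the bases that do not form a Watson-Crick pair with the small RNA in capitals. ARF3 and ARF4 have 2 tasiRNA sites each and ARF2 has 1.
ARF2 site for TAS3 window 8, chr5:24913260-24913280, + strand: aaGggTcttGcaaggtcaaga
ARF3 first site for TAS3 window 8, chr2:14325943-14325963, - strand: GaGggTcttGcaaggtcaaga
ARF3 second site for TAS3 window 8, chr2:14325823-14325843, - strand: TaaggTcttGcaaggtcaaga
ARF4 first site for TAS3 window 8, chr5:24309719-24309739, - strand: TaaggTcttGcaaggtcaaga
ARF4 second site for TAS3 window 8, chr5:24309509-24309529, - strand: aaGggTcttGcaaggtcaaga
ARF6 site for miR167a, chr1:10686478-10686498, - strand: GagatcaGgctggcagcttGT
ARF8 site for miR167a, chr5:14633841-14633861, + strand: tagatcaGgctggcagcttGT
ARF10 site for miR160a, chr2:12115741-12115761, + strand: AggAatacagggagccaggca
ARF16 site for miR160a, chr4:14704141-14704161, - strand: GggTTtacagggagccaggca
ARF17 site for miR160a, chr1:29274189-29274209, + strand: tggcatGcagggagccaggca

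The first site of ARF4 and the second of ARF3 have the same bases, as do the second of ARF4 and the site of ARF2. ARF17 pairs with miR160a at every base but 1, a G-U pair, whereas ARF10 has 2 mismatches and ARF16 has 2 mismatches and 1 G-U pair. The miR167 sites of ARF6 and ARF8 have 4 and 3 mismatches with miR167a, and in both the mismatches include the 2 bases that face the 5' end of the miRNA. All sites lie inside coding exons and none is split by an intron: exon 12 of 15 in ARF2, exon 10 of 10 in ARF3, exon 10 of 12 in ARF4, exon 14 of 15 in ARF6, exon 13 of 14 in ARF8, exon 2 of 4 in ARF10, exon 3 of 4 in ARF16 and exon 2 of 3 in ARF17. The map of sites along the coding sequences shows that the tasiRNA and miR160 sites begin in the middle of the coding sequence or after it, from 51.7% of its length in ARF2 to 78.2% at the second site of ARF3, and that the miR167 sites lie close to the stop codon, at 89.7% in ARF6 and 92.2% in ARF8.

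**Figure D1:**
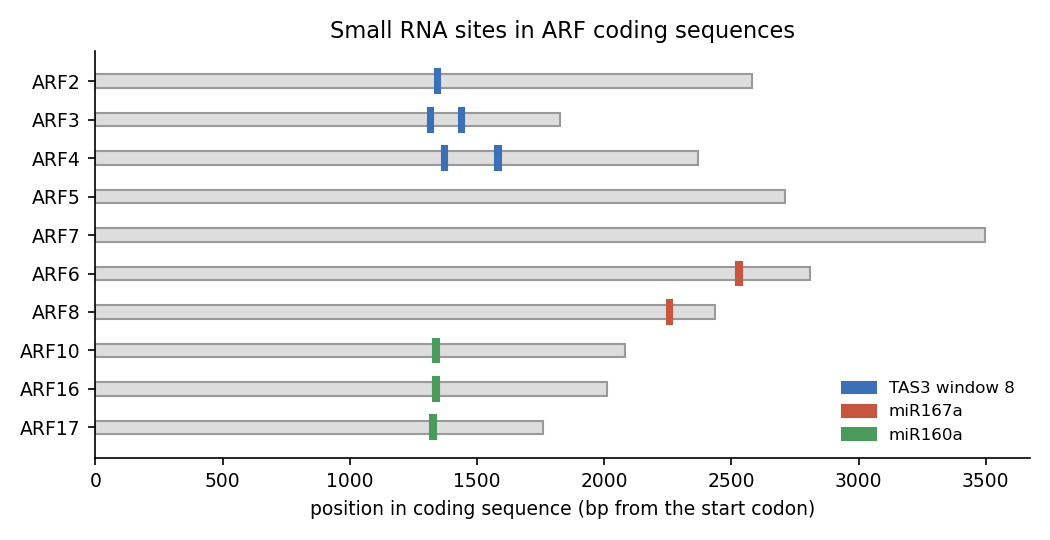
Positions of the small RNA sites in the coding sequences of the 10 ARF genes, in bp from the start codon; grey bars are the coding sequences to scale and coloured blocks the 21-base sites. ARF3 and ARF4 carry 2 sites each, ARF5 and ARF7 carry none and the others carry 1; the miR167 sites sit nearest to the end.

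The ribo-seq library had a depth of 38438721 reads and the mRNA-seq library one of 66958224 reads, recovered from the step between low values. The deposited values are RPM, reads scaled to the size of the library, for the 5' UTR, exons and 3' UTR of each isoform, where the exon table holds coding sequence. Markers of green tissue were high in both libraries, with RBCS1A at 9535 RPM in ribo-seq beside 13066 RPM in mRNA-seq. Over the 16879 genes with a mean exon value of at least 1 RPM, the median of ribo-seq RPM over mRNA-seq RPM was 0.446. A ratio is therefore read against this median and not against 1. All 10 ARF genes passed the limit of 1 RPM.

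All 10 ARF transcripts were found on MBPs and carried ribosome-protected reads, at levels that spanned more than an order of magnitude. Per kb of coding sequence, ARF2 had the highest mRNA-seq level, 103 RPM per kb, at percentile 92.1 of the genes tested. ARF6 followed with 33.3 RPM per kb. ARF4, ARF7, ARF8 and ARF3 lay between 13.0 and 16.3 RPM per kb, near the all-gene median of 13.9. ARF5, ARF16 and ARF10 had 9.48, 8.16 and 7.83 RPM per kb, and ARF17 was lowest with 3.84 RPM per kb, at percentile 16.1. The order in ribo-seq was not the same. ARF2 was again highest with 37.9 RPM per kb and ARF17 lowest with 1.12 RPM per kb, but ARF7 (6.28 RPM per kb) stood next to ARF6 (6.67 RPM per kb), whose mRNA-seq level was 33.3 against 14.2 RPM per kb for ARF7. Only ARF2 and ARF6 exceeded ARF4 in mRNA-seq, but in ribo-seq ARF4 had 2.40 RPM per kb and was exceeded by every gene but ARF8, ARF10 and ARF17.

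**Figure D2:**
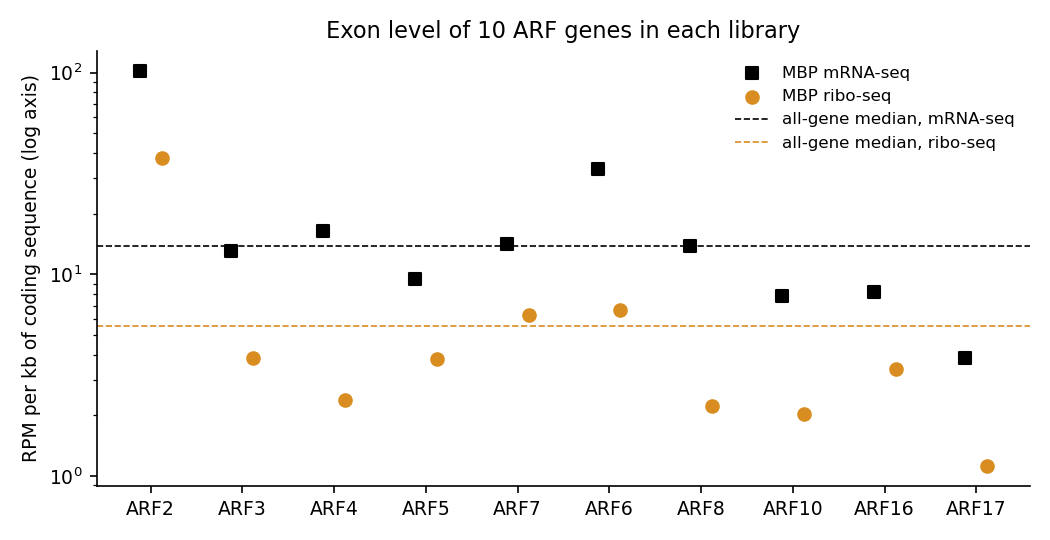
Exon level in RPM per kb of coding sequence (log axis) of the 10 ARF genes in the mRNA-seq library (squares) and the ribo-seq library (circles), with the medians of all genes tested as dashed lines (13.9 and 5.53 RPM per kb). ARF2, ARF6 and ARF7 are above both medians; ARF4 is above the mRNA-seq median and below the ribo-seq median.

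The ratio of the libraries showed the same contrast. Every one of the 10 ARF genes had a lower ratio than the median gene, where 50% of all genes do by construction, but 74.8% of the 3692 genes with a coding sequence as long as the ARFs (1758 to 3498 bp) did so as well. ARF4, ARF6 and ARF8 lay more than 2-fold below the all-gene median, as did 11.8% of all genes and 19.2% of the genes of that length. On the log2 scale with a pseudocount of 1, the median of the ARF genes was -1.53 and that of all genes -0.99. The median of the genes in the length range was -1.41, and 6 ARF genes lay below it. Relative to it ARF4 was at -1.16, ARF8 at -1.04 and ARF6 at -0.85, so ARF6 was less than 2-fold below it. Relative to genes of their own length the ARF median was -0.12, and relative to all genes -0.54. The spread among the ARF genes was wide, from -2.57 to -1.14.

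Among the tasiRNA targets, ARF2, a repressor that acts in organ growth and leaf senescence, had by far the most reads. It had 97.8 RPM in ribo-seq (3760 reads) and 265 RPM in mRNA-seq (17713 reads), a ratio of 0.370 (95% counting interval 0.357 to 0.383). Its log2 ratio of -1.43 was at percentile 29.2 of all genes. ARF3 and ARF4 act together in making the lower side of leaves, and ARF3 also patterns the gynoecium. ARF3 had 7.02 RPM in ribo-seq (270 reads) and 23.7 RPM in mRNA-seq (1590 reads), a ratio of 0.296 (0.259 to 0.337) and a log2 ratio of -1.62. ARF4 had 5.67 RPM in ribo-seq (218 reads) and 38.7 RPM in mRNA-seq (2588 reads), a ratio of 0.147 (0.127 to 0.169). With a log2 ratio of -2.57, ARF4 was at percentile 3.93 of all genes and was the lowest of the 10. The counting intervals of ARF2, ARF3 and ARF4 did not overlap. ARF2 carries 1 tasiRNA site and ARF3 and ARF4 carry 2 each, and the part of the sites in the ratios was not tested.

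The miR167 targets ARF6 and ARF8, activators with overlapping roles in flower maturation, were both low. ARF6 had 18.7 RPM in ribo-seq (720 reads) and 93.6 RPM in mRNA-seq (6269 reads), a ratio of 0.200 (0.185 to 0.216), and a log2 ratio of -2.26 at percentile 7.04. ARF8 had 5.41 RPM in ribo-seq (208 reads) and 33.9 RPM in mRNA-seq (2268 reads), a ratio of 0.160 (0.138 to 0.184), and a log2 ratio of -2.44 at percentile 4.90. The interval of ARF8 was just below that of ARF6 and overlapped that of ARF4.

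The miR160 targets had the lowest mRNA-seq values of the 10, and their ratios were spread from 0.258 to 0.418. ARF10 and ARF16 act in the root cap and ARF17 in pollen wall formation and adventitious rooting. ARF10 had 4.21 RPM in ribo-seq (162 reads) and 16.3 RPM in mRNA-seq (1092 reads), a ratio of 0.258 (0.218 to 0.305) and a log2 ratio of -1.73. ARF16 had nearly the same mRNA-seq value, 16.4 RPM (1100 reads), but 6.87 RPM in ribo-seq (264 reads), a ratio of 0.418 (0.364 to 0.479) and a log2 ratio of -1.15. ARF17 had 1.98 RPM in ribo-seq (76 reads) and 6.75 RPM in mRNA-seq (452 reads), a ratio of 0.293 (0.227 to 0.374). The pair ARF10 and ARF16, close in mRNA-seq, thus differed in ribo-seq by more than counting error. ARF17, with the site closest to a perfect match for miR160, had an interval that overlapped those of both.

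The genes that are not targeted were at the upper end. ARF5, which acts in the embryo axis and vascular tissue, had 10.4 RPM in ribo-seq (398 reads) and 25.7 RPM in mRNA-seq (1720 reads), a ratio of 0.403 (0.361 to 0.450) and a log2 ratio of -1.23. ARF7, which acts in phototropism and lateral root formation, had 22.0 RPM in ribo-seq (845 reads) and 49.6 RPM in mRNA-seq (3322 reads), a ratio of 0.443 (0.410 to 0.478) and a log2 ratio of -1.14 at percentile 42.1. The intervals of both contained the all-gene median of 0.446. ARF5 and ARF7 did not stand apart as a class, since the intervals of ARF16, a miR160 target, and of ARF2 overlapped that of ARF5.

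Ordered by ratio, the genes ran ARF7, ARF16, ARF5, ARF2, ARF3, ARF17, ARF10, ARF6, ARF8 and ARF4. Neighbours in this order had intervals that did not overlap only between ARF2 and ARF3, between ARF10 and ARF6 and between ARF6 and ARF8. By class, the log2 ratios were -2.57 to -1.43 for the tasiRNA targets, -2.44 to -2.26 for the miR167 targets, -1.73 to -1.15 for the miR160 targets and -1.23 to -1.14 for the genes without a site. With 2 or 3 genes a class these ranges are a description, and the part of the small RNAs in the ratios was not tested. Both ARF8 isoforms keep the miR167 site in their coding sequence. Exact matches of 28 bases, about the length of a ribosome-protected piece, were sought between the coding sequences of the isoforms used here. None of the 10 shared such a stretch with another gene. Near matches, UTRs and other isoforms were not searched. ARF5 and ARF7 overlap a gene on the opposite strand at their 3' ends, by 23 and 254 bp, and whether the counting used strand is not stated.

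**Figure D3:**
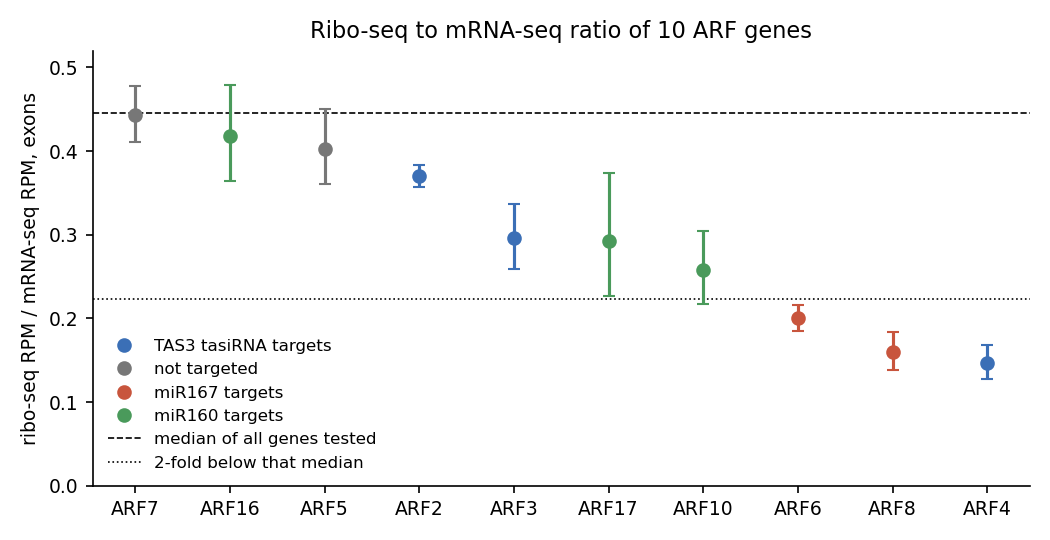
Ribo-seq RPM over mRNA-seq RPM for exons of the 10 ARF genes, ordered by ratio and coloured by small RNA class; bars are exact 95% counting intervals, the dashed line is the median of all genes tested (0.446) and the dotted line lies 2-fold below it. ARF6, ARF8 and ARF4 sit below the dotted line; the intervals of ARF7, ARF16 and ARF5 include the dashed line.

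Ribosome-protected reads were also found upstream of the main open reading frame. Summed over the 10 genes, the 5' UTR held 388 of 7312 ribo-seq reads, 5.31% (Wilson 95% interval 4.82 to 5.84), and 7.45% of the mRNA-seq reads (7.21 to 7.70). Over all genes the shares were 1.14% and 3.91%. As a sum, the ARF genes thus kept a larger part of their 5' UTR reads in ribo-seq than genes on average. Most of those ribo-seq reads came from ARF2 and ARF6. Without ARF2, which held 177 of these ribo-seq reads, the shares were 6.25% and 7.23%. The ribo-seq interval (5.49 to 7.12) then overlapped that of mRNA-seq (6.91 to 7.57). Of the 211 ribo-seq 5' UTR reads left, ARF6 held 135, and shares without both genes were not calculated. The 3' UTR was different. There the 10 genes held 3 ribo-seq reads, 0.0410% (0.0140 to 0.121), against 3386 mRNA-seq reads, 7.55%. No gene had more than 1 ribo-seq read in its 3' UTR, where mRNA-seq reads numbered from 85 to 1958. This is the rule in these libraries, since 82.2% of the genes with at least 80 mRNA-seq reads in the 3' UTR had at most 1 ribo-seq read there. Over all genes, 3' UTRs held 3.11% of the ribo-seq reads, and 0.672% once the start of chromosome 1, its first 154478 bp, was left out. The cut was set at the length of the chloroplast genome.

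**Figure D4:**
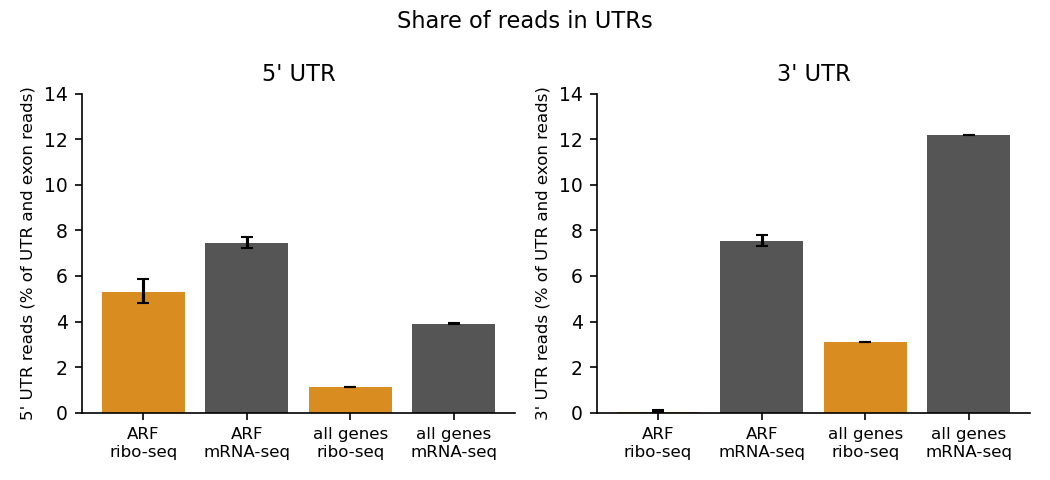
Reads in the 5' UTR (left) and 3' UTR (right) as a percentage of UTR and exon reads, for the 10 ARF genes summed and for all genes, in ribo-seq (orange) and mRNA-seq (grey); bars start at 0 and error bars are Wilson 95% intervals. The ARF 5' UTR share is 5.31% in ribo-seq and 7.45% in mRNA-seq, and the ARF 3' UTR share is 0.0410% in ribo-seq and 7.55% in mRNA-seq.

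To set the 5' UTR against the coding sequence gene by gene, the ribo-seq to mRNA-seq ratio of the 5' UTR was divided by that of the exons. A value of 1 means that the 5' UTR carried as many ribosome-protected reads per mRNA read as the coding sequence did. Over the 6719 genes with a mean 5' UTR value of at least 0.5 RPM and reads in each feature of both libraries, the median was 0.198. The 9 ARF genes with a 5' UTR in the table all lay above it, with a median of 0.824. Of these 9, 5 reached 0.5 RPM themselves (ARF2, ARF4, ARF5, ARF6 and ARF7), and by construction 50% of the genes lie above the median. ARF10 has no 5' UTR value in the table, so it has no quotient, and in the summed shares above it entered with its exon and 3' UTR reads.

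ARF6 was the only one of the 9 with a value above 1, as were 10.7% of all genes. Its 5' UTR had 135 reads in ribo-seq and 893 in mRNA-seq, beside 720 and 6269 reads in the exons, a value of 1.32 (95% interval of the odds ratio 1.07 to 1.61) at percentile 93.5 of all genes. The 5' UTR held 15.8% of the 5' UTR and exon reads of ARF6 in ribo-seq (13.5 to 18.4) and 12.5% in mRNA-seq (11.7 to 13.3). The other isoform of ARF6 has more 5' UTR reads, 171 and 1037, and gave 1.43 (1.19 to 1.71). In ARF6 the ratio was thus 0.263 in the 5' UTR and 0.200 in the exons, a difference larger than counting error.

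ARF8 and ARF4, the other genes of low ratio, had values near 1 with wide intervals. ARF8 had 4 ribo-seq and 44 mRNA-seq reads in the 5' UTR, a value of 0.991 (0.256 to 2.76). ARF4 had 17 and 245 reads, a value of 0.824 (0.463 to 1.38) at percentile 85.8. ARF5, of higher coding ratio, had 20 and 93 reads and a value of 0.929 (0.536 to 1.54) at percentile 88.2. For these genes a difference between 5' UTR and exons was not detectable at this depth.

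ARF2 and ARF7 had 5' UTR ratios below their exon ratios by more than counting error. ARF2 had 177 ribo-seq and 1638 mRNA-seq reads in the 5' UTR, a value of 0.509 (0.432 to 0.597) at percentile 75.8. ARF7 had 24 and 310 reads, a value of 0.304 (0.191 to 0.465) at percentile 62.7. ARF16 with 4 and 50 reads had 0.333 (0.0867 to 0.921), the third interval that ended below 1. ARF3 with 5 and 55 reads (0.535) and ARF17 with 2 and 12 reads (0.991) had too few reads to place. The interval of ARF6 did not overlap that of ARF2, ARF7 or ARF16.

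**Figure D5:**
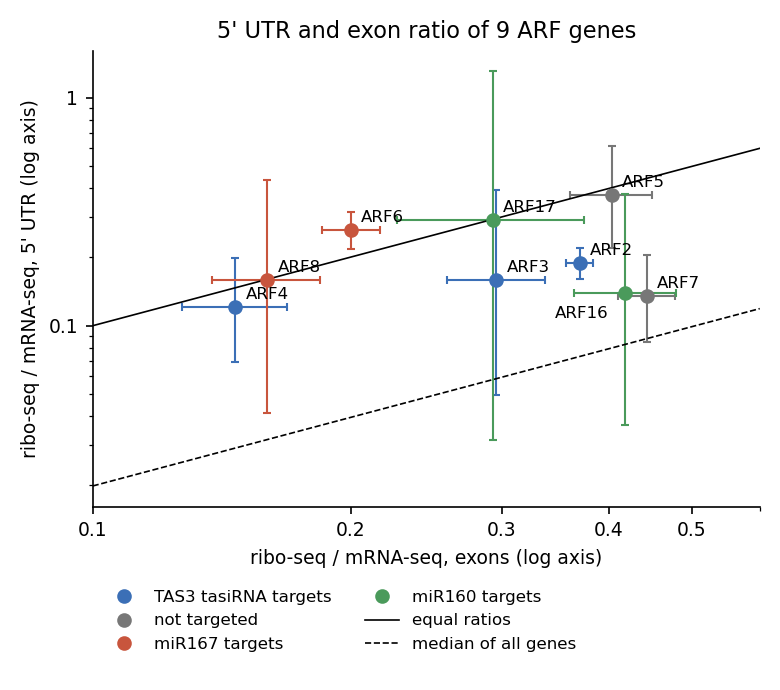
Ribo-seq to mRNA-seq ratio of the 5' UTR against that of the exons for 9 ARF genes (both axes log), coloured by small RNA class, with exact 95% counting intervals; the solid line marks equal ratios and the dashed line the all-gene median of their quotient (0.198). ARF6 lies above the solid line, ARF2 and ARF7 below it, and all 9 points lie above the dashed line. The 95% intervals of the quotient for ARF3, ARF7, ARF16 and ARF17 include 0.198.

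With a pseudocount of 0.5 RPM and a mean 5' UTR value of at least 0.5 RPM, the log2 of this quotient, called occupancy here, could be given for 5 of the genes. It was 0.52 in ARF4, 0.51 in ARF6, 0.38 in ARF5, -0.86 in ARF2 and -1.03 in ARF7, beside an all-gene median of -0.87. Values above 0 were found for 3 of the 5 genes and for 24.2% of the 7029 genes that passed. With no limit on low values they were found for 7 of 9 genes and for 50.2% of all genes with a 5' UTR. The pseudocount lifts the values of genes with low 5' UTR counts: without it ARF4 was at -0.28 and ARF5 at -0.11, and ARF6 was above 0 at 0.40.

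The 5' UTRs of most ARF genes in the TAIR10.1 annotation are long and rich in upstream ATGs. Their extent may differ from that of the 5' UTRs behind the tables. ARF5 and ARF8 hold 10 upstream ATGs each, ARF2 holds 9, ARF6 holds 6, ARF4 holds 5 and ARF10 holds 4. ARF3 and ARF7 have 2 each, ARF17 has 1 and ARF16, with the shortest 5' UTR (197 bp), has none. Among 16298 annotated 5' UTRs, 25.4% hold 3 or more upstream ATGs and 38.3% hold none, and the median length is 192 bp, against 716 bp in ARF6, 698 bp in ARF8 and 684 bp in ARF5. These ATGs open 8 uORFs in ARF5, 7 in ARF2 and ARF8, 5 in ARF6 and 4 in ARF4, none of which runs into the main reading frame. Most are short, of 1 to 31 codons in these genes, while ARF3 has a uORF of 92 codons. In ARF8 the 5' UTR of 698 bp had 0.941 RPM per kb in mRNA-seq, 6.77% of the level of its coding sequence per kb and the lowest such share of the 9. In ARF6 the share was 55.9%.

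Among 6966 genes that passed the limit of 0.5 RPM, 5' UTR occupancy was higher where the annotated 5' UTR held more upstream ATGs. The median was -1.37 for genes with none, -0.75 for 1 or 2 and -0.24 for 3 or more. In these groups 7.20%, 24.3% and 42.0% of the genes lay above 0. The length of the 5' UTR was not held constant, and its part in this trend was not tested. The values of ARF4, ARF5 and ARF6, which hold 5 to 10 upstream ATGs, were all above the median of the third group. ARF2, which holds 9, lay below it at -0.86, so the order of the ARF genes by occupancy was not their order by number of upstream ATGs. ARF7 with 2 lay below the median of the second group. Both placements turned without a pseudocount. The median of the third group was then -1.17 with ARF2 above it at -0.97, and that of the second group -2.23 with ARF7 above it at -1.72. Where on the 5' UTR the protected reads lay was not analysed here, because the tables give 1 value for each 5' UTR.

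The genes around the ARFs in the pathway gave the following picture. Of 13 other ARF genes, 12 were in the table and 5 passed the limit of 1 RPM, with ARF1 at a log2 ratio of -1.52, ARF9 at -0.84, ARF11 at -1.87, ARF18 at -1.39 and ARF19, the closest relative of ARF7, at -1.31. Their median was -1.39, and ARF9 alone lay above the all-gene median. The other 7 (ARF12 to ARF15 and ARF20 to ARF22) had 0 to 4 reads in each library. None of the 5 lay more than 2-fold below the median, where 11.8% of all genes do.

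The TOPLESS co-repressors all lay below the all-gene median, 5 of 5, where 50% of all genes do, with a median of -1.51. TOPLESS itself was lowest at -2.03 with 85.7 RPM in ribo-seq beside 353 RPM in mRNA-seq, and TPR2 highest at -1.26. Their coding sequences, 3327 to 3408 bp, fall in the range of 1758 to 3498 bp, where 74.8% of the genes lay below the all-gene median. The share for genes near 3327 to 3408 bp alone was not calculated. The early auxin response genes that ARFs switch on lay on the other side. Of 9 such genes 5 passed, and these 5 lay above the all-gene median, as 50% of all genes do, with a median of -0.68. All of them but HAT2 are GH3 genes. Without a pseudocount, the intervals of BRU6 (GH3.2, 0.387 to 0.681) and HAT2 (0.420 to 0.585) contained the all-gene median of 0.446. The highest was DFL1 (GH3.6, an enzyme that conjugates auxin to amino acids) at -0.59, with 40.1 RPM in ribo-seq beside 61.0 RPM in mRNA-seq, and the lowest was HAT2, a homeodomain transcription factor, at -0.88. The lateral root factors LBD16, LBD18 and LBD29 did not pass, with at most 22 reads in a library.

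The 10 genes that make or carry the small RNAs of ARF transcripts split evenly, with 5 below and 5 above the all-gene median and a median of -1.09. RDR6, the RNA-dependent RNA polymerase that copies cleaved TAS3 RNA, was lowest at -2.85, with 3.23 RPM in ribo-seq (124 reads) and 29.4 RPM in mRNA-seq (1967 reads). DCL4, which cuts the copies into 21-base siRNAs, was the other gene more than 2-fold below the median, at -2.05. Of all genes, 11.8% were that low. The coding sequences of RDR6 and DCL4, 3591 and 5109 bp, are longer than those of the 10 ARF genes. The Argonautes were both below the median, AGO1 at -1.36 and AGO7 at -1.26. AGO7 had 0.963 RPM in ribo-seq and only 3.69 RPM in mRNA-seq, so the pseudocount weighs on its value: without it the ratio was 0.261 (0.179 to 0.370) for AGO7 and 0.387 (0.373 to 0.401) for AGO1, and AGO7 was the lower of the pair. DCL1, which makes miRNAs, was highest at 0.43. It lies in the first 154478 bp of chromosome 1, where 47.2% of the 36 genes tested were more than 2-fold above the median against 5.59% of all genes, and the part of that region in its value was not tested.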

How the data were processed

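MBP ribo-seq and MBP mRNA-seq values for 10 ARF genes were taken from 1 library per assay. The authors aligned reads with TopHat2 2.0 under default settings to TAIR10 and assigned them to features with bedtools 2.23.0. Their general methods for mRNA-seq drop reads that map to more than 1 place. Whether this covered the MBP libraries, and how strand was treated, is not given in the sources used here. The deposited values are RPM for the 5' UTR, exons and 3' UTR of each isoform. The deposited mRNA-seq exon column, in which reads count for every isoform, sums to more than the RPM scale allows and was treated as a signal. For RNA-seq libraries the authors described polyA+ selection, and no such step for ribo-seq, so the libraries may differ in more than ribosome protection.

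Values were converted to whole reads. Of the values above 0, 100% lay within 0.05 reads of a whole number or within a larger rounding allowance that grew with the count. At the highest counts this allowance lets any value pass. A count of 0 allows up to 3 reads, 0.0780 RPM for ribo-seq or 0.0448 RPM for mRNA-seq. Each gene was represented by its isoform with the highest mean exon value. Log2 ratios used a pseudocount of 1 RPM and a mean exon RPM of at least 1. 5' UTR occupancy used 0.5 for both, and both pseudocounts understate differences of low genes. Intervals are exact (Clopper-Pearson) or Wilson at 95%, except those of the 5' UTR over exon quotient. The latter are conditional 95% intervals of the odds ratio, set beside the plain quotient. PCR reads are not independent molecules. The members, lists and limits were chosen with earlier results of these data known. Named genes were the 10 members, other ARF genes that passed the filter, and the highest and lowest gene of each other list by ratio. AGO1, AGO7, DCL4, TPR4, BRU6 and the LBD genes were named after their values were seen. Sequences and annotation are from RefSeq TAIR10.1, which matched all 10 genes. The procedure was tested on simulated reads. Calculations ran in Python 3.11.15 with statsmodels 0.14.6, scipy 1.17.1, pandas 2.3.3 and numpy 2.4.6. Alternatives concerned pseudocounts, filters, isoforms, UTR values, scaling and, chosen after seeing the data, the coding length range, ARF2 and a binomial test on recovered reads.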

Additional observations from a re-analysis of the deposited data

How the results depend on the processing

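The median log2 ratio of the ARF genes relative to all genes was -0.54. It was -0.93 with no filter on low values and -0.12 against genes in the coding length range of the ARFs, an alternative chosen after seeing the data, under which 6 genes and not 10 lay below the median. The count of genes more than 2-fold below the median was 5 and not 3 with no filter, where the all-gene median was -0.59 and 15.4% of all genes were so called. A binomial test on recovered reads, chosen after seeing the data, compares the libraries and not the conditions: it called 6672 genes higher and 6709 lower than the median gene of 16879, 39.7% of them lower, and of the ARF genes 7 were lower and none higher (ARF5, ARF7 and ARF16 were not called). The mRNA-seq 5' UTR share of 7.45% became 7.75% with first isoforms and 7.74% with isoforms summed, and the ribo-seq share of 5.31% became 6.25% without ARF2. The median 5' UTR occupancy of 0.38 turned to -0.046 with a pseudocount of 0.1, to -0.28 with none and to -0.18 where only genes of 2 RPM or more in the 5' UTR entered, beside all-gene medians of -1.83, -2.34 and -1.58. The count of genes above 0 became 1 of 5 with no pseudocount, where 10.7% of all genes lay above 0, and 7 of 9 with no filter, where 50.2% did. The sign of the occupancy of ARF4 and ARF5 thus depends on the pseudocount, while ARF6 was above 0 under each of these settings. Other settings of the pseudocount, filter, isoform, UTR values and scaling kept the exon results, with 9 of 9 genes below the median at 10 RPM. No paired analysis was possible because each assay has 1 library. Depth limits the 5' UTR values of ARF3, ARF8, ARF16 and ARF17, which rest on 2 to 5 ribo-seq reads.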

Other observations

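RDR6 and TOPLESS shared with ARF6 a low coding ratio, but their 5' UTRs differed. The 5' UTR of RDR6, which holds 2 upstream ATGs in the annotation, had 0.572 RPM in ribo-seq beside 0.986 RPM in mRNA-seq, and an occupancy of 2.53, while that of TOPLESS, which holds 4, had 0.650 RPM beside 7.05 RPM and an occupancy of -0.68. Among the co-repressors, WSIP2 (TPR4) was the one gene of 4 with an occupancy above 0, at 0.26, where 24.2% of all genes lay above 0, and it was at -0.19 without a pseudocount. ARF1, with no upstream ATG, had 0.0260 RPM in its 5' UTR in ribo-seq, the value of 1 read, beside 4.02 RPM in mRNA-seq.

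The isoforms of ARF8 differed in the 3' UTR. The first, with a coding sequence of 2436 bp, had 1 ribo-seq read and 205 mRNA-seq reads there, and the second, with a coding sequence of 2322 bp, had 11 and 330. Reads over the last coding bases of the first isoform can count as 3' UTR reads of the second, so these values do not show reads beyond the stop codon of the first. In ARF2, the fourth isoform had 3686 ribo-seq reads in its exons against 3760 for the others.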
